A study of Mus musculus with 2 samples.

Results

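The genes described here encode the ATPases and subunits of the chromatin remodellers of mammals, mainly the SWI/SNF (BAF) complexes and the CHD family, with the ISWI, INO80, EP400, SRCAP, SMARCAD1 and SMARCAL1 enzymes beside them. The list named 42 genes by family, drawn up with earlier results of these data known, of the 21887 protein-coding genes of the assembled mouse chromosomes. A gene was counted as marked when an ARID4B interval overlapped its GRCm38 record or the 1 kb either side of it by at least 1 bp. By that rule 32 of the 42 genes were marked, against 30.7% of all protein-coding genes.

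ARID4B was immunoprecipitated from the chromatin of 108 pooled testes of wild type male mice, a hybrid of C57BL6/J and 129/SvEv, at postnatal day 1.5, and input DNA of the same tissue served as the control. Each was sequenced as 1 library, without replicates, and no test between conditions was possible. The list of enriched intervals held 6632 entries on the 19 autosomes and the X chromosome, each with a score given by the authors (lowest 70.02, median 125.0, highest 1760.61). The depth of the libraries is unknown, and a gene without an interval may hold signal below the limit of the list. Whole testes were used, so an interval cannot be assigned to a cell type, and RNA was not measured. Intervals were present at 5 of 5 Sertoli cell genes looked up (Wt1, Sox9, Amh, Gata4, Dhh), that of Amh shared with Jsrp1. They were present at 1 of 4 germ cell genes, 0 of 4 Leydig cell genes, 0 of 2 myoid, 1 of 3 endothelial and 0 of 3 macrophage genes. The share of all protein-coding genes was 30.7%, and these counts are small. Binding at a gene does not show that its cells were present.

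Remodellers use the energy of ATP hydrolysis to slide, evict or exchange nucleosomes. The BAF complexes open chromatin at promoters and enhancers and come in 3 forms, canonical BAF, PBAF and non-canonical BAF, told apart by a few subunits. CHD3, CHD4 and CHD5 are the ATPases of NuRD, which couples remodelling to histone deacetylation. ISWI enzymes space nucleosomes, and the INO80 family exchanges or removes histone variants such as H2A.Z. ARID4B belongs to a different repressive assembly, the SIN3-histone deacetylase complex, and shares with ARID1A, ARID1B and ARID2 the AT-rich interaction domain after which they are named.

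The promoters of 6 members and of 1 non-coding neighbour show what the marked and unmarked starts looked like. Each window runs from 250 bases before the gene start to 50 after it, 5′ to 3′ on the gene's own strand, from RefSeq on GRCm38.p6, and capitals mark CpG dinucleotides. Ss18l1 and Srcap were chosen because high-scoring intervals covered all 300 bases. Chd4 and Chd5, and Actl6a and Actl6b, are paralogs of which only the first-named had an interval at its start. Chaserr is the non-coding gene beside the unmarked Chd2.
Ss18l1 (chr2:180042233-180042532, plus strand): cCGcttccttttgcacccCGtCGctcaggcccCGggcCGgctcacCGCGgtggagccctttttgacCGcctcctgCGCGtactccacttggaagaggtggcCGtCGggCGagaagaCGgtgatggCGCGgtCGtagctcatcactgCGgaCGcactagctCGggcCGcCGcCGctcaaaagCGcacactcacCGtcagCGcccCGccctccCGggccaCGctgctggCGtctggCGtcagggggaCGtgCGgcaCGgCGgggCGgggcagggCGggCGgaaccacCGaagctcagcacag
Srcap (chr7:127511733-127512032, plus strand): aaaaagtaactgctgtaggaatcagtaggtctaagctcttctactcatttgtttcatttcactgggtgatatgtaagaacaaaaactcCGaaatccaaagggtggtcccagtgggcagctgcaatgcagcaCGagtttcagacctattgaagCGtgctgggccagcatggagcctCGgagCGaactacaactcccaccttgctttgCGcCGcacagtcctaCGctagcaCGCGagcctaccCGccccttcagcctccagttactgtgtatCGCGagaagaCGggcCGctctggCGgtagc
Chd4 (chr6:125095731-125096030, plus strand): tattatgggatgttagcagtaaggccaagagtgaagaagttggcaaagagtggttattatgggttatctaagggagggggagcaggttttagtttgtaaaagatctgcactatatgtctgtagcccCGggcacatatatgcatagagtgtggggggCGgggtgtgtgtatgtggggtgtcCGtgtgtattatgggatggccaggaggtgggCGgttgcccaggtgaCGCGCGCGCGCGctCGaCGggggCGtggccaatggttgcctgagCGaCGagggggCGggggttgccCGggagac
Chd5 (chr4:152338401-152338700, plus strand): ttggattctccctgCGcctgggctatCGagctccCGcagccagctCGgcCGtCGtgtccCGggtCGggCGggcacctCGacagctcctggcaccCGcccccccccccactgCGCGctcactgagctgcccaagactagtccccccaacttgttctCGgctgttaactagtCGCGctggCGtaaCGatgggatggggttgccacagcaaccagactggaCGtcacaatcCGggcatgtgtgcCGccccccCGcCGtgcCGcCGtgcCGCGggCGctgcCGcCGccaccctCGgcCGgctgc
Chaserr (chr7:73558346-73558645, minus strand): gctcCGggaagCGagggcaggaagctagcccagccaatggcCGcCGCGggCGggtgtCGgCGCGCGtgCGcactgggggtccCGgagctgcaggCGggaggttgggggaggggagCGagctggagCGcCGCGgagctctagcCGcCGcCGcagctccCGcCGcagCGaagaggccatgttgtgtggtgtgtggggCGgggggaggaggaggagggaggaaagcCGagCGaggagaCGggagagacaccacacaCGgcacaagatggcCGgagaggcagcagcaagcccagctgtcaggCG
Actl6a (chr3:32708296-32708595, plus strand): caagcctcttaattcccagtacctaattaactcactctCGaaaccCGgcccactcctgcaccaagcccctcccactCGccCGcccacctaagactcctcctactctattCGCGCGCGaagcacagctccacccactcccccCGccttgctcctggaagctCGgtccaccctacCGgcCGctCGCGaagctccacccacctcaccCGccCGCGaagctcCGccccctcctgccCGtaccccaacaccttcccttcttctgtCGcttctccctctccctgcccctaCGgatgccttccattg
Actl6b (chr5:137553296-137553595, plus strand): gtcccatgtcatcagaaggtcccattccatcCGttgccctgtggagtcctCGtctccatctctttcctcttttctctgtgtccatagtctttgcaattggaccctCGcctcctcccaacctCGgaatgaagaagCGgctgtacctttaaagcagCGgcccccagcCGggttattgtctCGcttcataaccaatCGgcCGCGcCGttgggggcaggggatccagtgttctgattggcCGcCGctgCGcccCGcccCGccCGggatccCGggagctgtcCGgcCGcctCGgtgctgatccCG
The Ss18l1 window held 39 CpG dinucleotides and the Srcap window 16, although intervals covered both in full. The Chd4 window held 17 CpG and its last 62 bases lay in an interval, and the Chd5 window 32 CpG with no base in an interval. Chd4 and Chd5 each have 2 listed starts, and only the window at the more upstream one was counted. The Actl6a window held 21 CpG with 206 bases covered, and the Actl6b window 23 CpG with none covered. In the windows of both pairs the unmarked paralog held more CpG. Over all members it was the other way, with a median of 32 CpG in the 21 windows of genes with an interval at a listed start and 23 in the 13 others. Over all protein-coding windows the medians were 25 with such an interval and 7 without.

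Of the 42 remodeller genes, 32 were marked (76.19%, 95% Clopper-Pearson interval 60.55 to 87.95%), against 30.7% of the 21887 protein-coding genes. The intervals given on shares cover counting error only. The marked genes spread over every family, with 22 of 26 BAF subunit genes, 5 of 9 CHD genes, 2 of 4 ISWI and other ATPase genes and 3 of 3 genes of the INO80 family. The 10 genes without an interval were Smarcb1, Smarcd1, Dpf2 and Actl6b of the BAF subunits, Chd2, Chd5, Chd6 and Chd7 of the CHD family, and Smarca1 and Smarcal1. The best score at a marked member had a median of 183.4 (quartiles 116.4 and 256.0), against a median of 131.8 (quartiles 96.61 and 197.0) at all 6709 marked protein-coding genes. The confidence interval of the members' median, 120.94 to 227.32, held the median of all marked genes, so a difference in score was not resolved. Scores above the median of the list were found at 22 of the 32 marked members (68.8%) and at 54.4% of all marked genes. An interval in the best 10% of scores lay at 6 of the 42 members, against 3.58% of all protein-coding genes. These 6 were Ss18l1, Arid1a, Chd4, Srcap, Ss18 and Chd9.

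**Figure D1:**
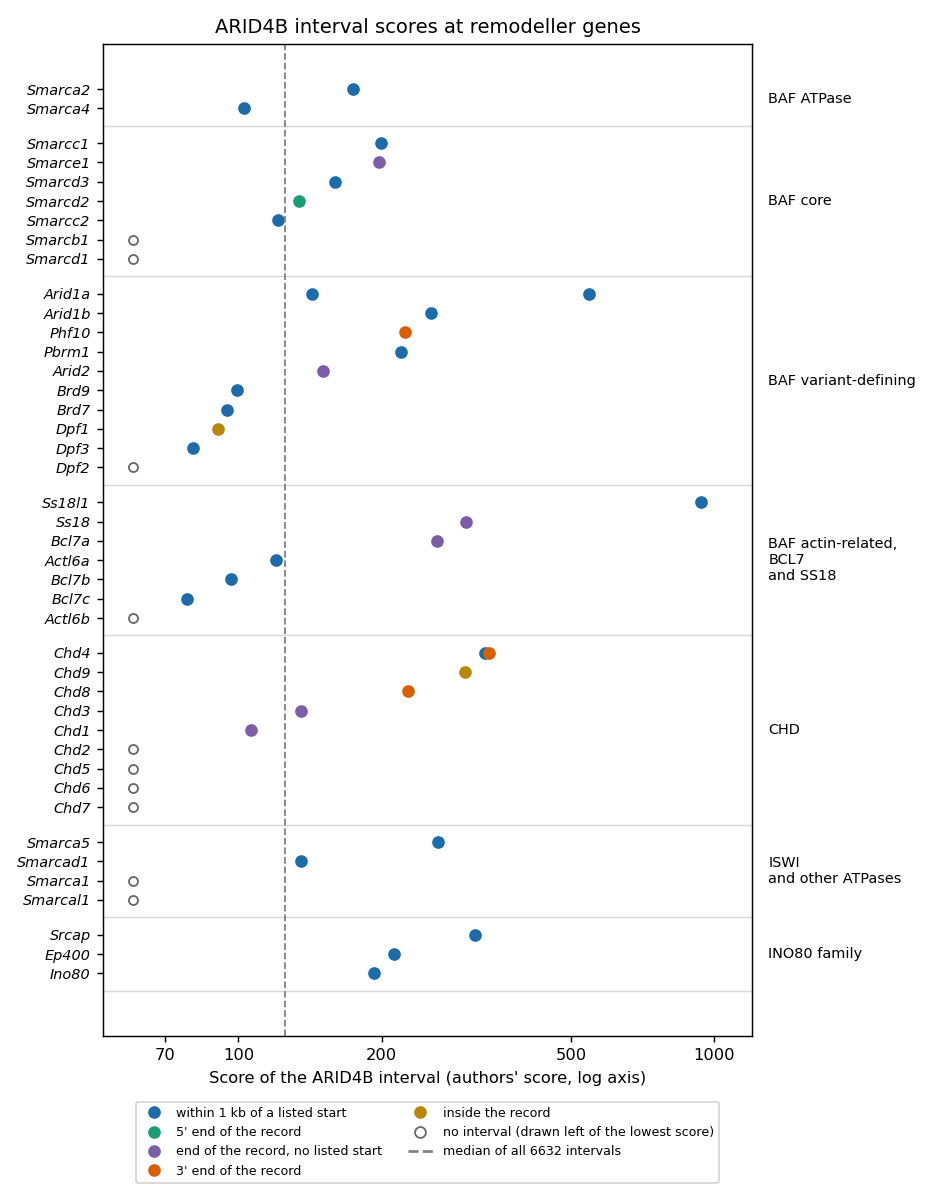
Score of each ARID4B interval (log axis, the authors' score) at the 42 remodeller genes, grouped by role and ordered by score; colour gives where the interval lay, open circles are the 10 genes without one, and the dashed line is the median of all 6632 intervals. Ss18l1 (938.92) and Arid1a (545.45) stand to the right of the other members, and the open circles are most numerous among the CHD genes (4 of 9).

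The length of the gene record and the CpG content of the promoter, which the list did not use, moved with the share of genes marked. Records of the members had a median length of 50.4 kb, against 17.2 kb for all protein-coding genes, and the part of record length in the share marked was not tested. No member fell in the shortest quartile of genes, of which 16.5% were marked. In the second quartile 4 of 7 members were marked, against 30.0% of all genes of that length. In the third quartile it was 11 of 12 members against 33.7% of all genes, and in the longest quartile 17 of 23 members against 42.3%. The 95% Clopper-Pearson interval of the members' share held that of all genes in the second quartile (18.41 to 90.1%) and lay above it in the third (61.52 to 99.79%) and the longest (51.59 to 89.77%). The list was drawn up with earlier results of these data known, so these intervals are a description and no test of an excess. Median records were 48.3 kb for marked and 67.4 kb for unmarked members. When only the 1 kb either side of the ends of the record counted, 28 of 42 members had an interval, against 27.1% of all protein-coding genes.

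**Figure D2:**
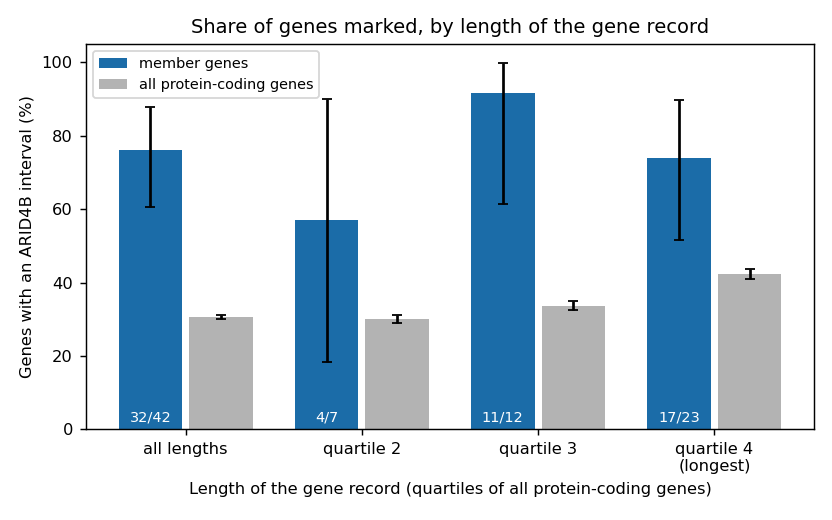
Percent of genes with an ARID4B interval in the record or 1 kb either side, for the member genes (blue, with the counts written in the bars) and all protein-coding genes (grey), over all lengths and by quartile of record length; bars carry 95% Clopper-Pearson intervals. The blue error bar reaches below the grey bar in quartile 2 and lies above it in the other pairs, with 17 of 23 members marked in the longest quartile against 42.3% of all genes.

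Strand and starts of transcription were listed for 34 of the 42 members (40 starts). No start was listed for Smarce1, Arid2, Bcl7a, Ss18, Chd1, Chd2, Chd3 and Chd7. Of the 34, 21 had an interval within 1 kb of a listed start, against 28.0% of the 17492 protein-coding genes with one. The midpoint of that interval, the best-scoring one where there were more, lay downstream of the start at 17 of the 21 members (81.0%) and at 78.1% of the 4896 such protein-coding genes. Arid1a counts there by its better interval, and the midpoint of its other one lay 524 bp upstream. The distance of the midpoint from the start had a median of 266 bp downstream at the members (quartiles 192 and 472 bp), against 200 bp (quartiles 34 and 369 bp) at all such genes. The start itself lay inside the interval at 85.6% of the 4896 such protein-coding genes and at 17 of the 21 members (81.0%). The exceptions were Smarca2 and Smarca5, with intervals beginning 512 and 173 bp downstream, Smarcc2, whose interval ended 44 bp upstream, and Arid1a, whose start lay in the gap between a pair of intervals. The 34 intervals of the marked members were 640 to 2413 bp wide (median 1188 bp, against 1084 bp for the whole list).

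**Figure D3:**
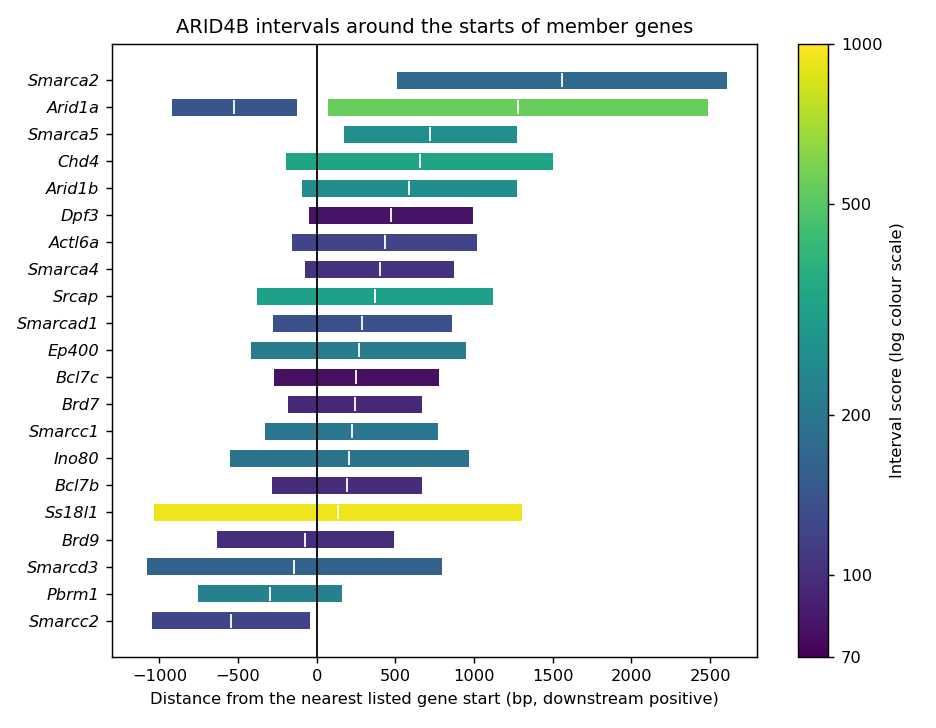
Extent of the intervals (bars) and their midpoints (white ticks) at the 21 members with an interval within 1 kb of a listed start, as distance in bp from the nearest listed start (black line, downstream positive); colour is the score on a log scale. The midpoint of the best-scoring interval lies to the right of the line at 17 of 21 members, and those of Smarcc2, Pbrm1, Smarcd3 and Brd9 lie to the left.

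Both ATPase genes of the BAF complexes had an interval within 1 kb of the start. Smarca4, which encodes BRG1, had one at chr9:21616096-21617041 with a score of 102.93, below the median of the list. Smarca2, which encodes the alternative ATPase BRM, had a wider one of 2095 bp at chr19:26605672-26607766 with a score of 174.13. The Smarca2 interval lay 1.56 kb into the gene by its midpoint and also overlapped the record of the lncRNA gene Gm52395. The nearest listed starts of the Smarca2 and Gm52395 genes are 616 bp apart. The midpoint was closer to a listed Gm52395 start, 209 bp upstream of it, than to the Smarca2 start. Scores of single intervals in 1 library carry no error estimate, so the order of the ATPase genes is a description.

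Of the 7 core subunit genes 5 were marked, with scores between 120.94 and 199.0. The SMARCC proteins are the scaffold on which the complex is built. Smarcc1 had an interval across its start (chr9:110131696-110132795, score 199.0), and Smarcc2 had one just upstream of its start (chr10:128458186-128459192, score 120.94), over a tRNA gene and the miRNA gene Mir8105. Smarce1, the gene of an HMG-box subunit, had a score of 197.59 at an end of its record (chr11:99229890-99231246). The 3 SMARCD genes, which encode alternative subunits that link the complex to transcription factors, differed. Smarcd3, best known from heart and muscle, had an interval of score 159.84 across its listed start, which lies inside the record. Its midpoint lay 9522 bp inside the nearer end of the record, which is the 3′ end. Smarcd2 had one of score 134.11 at the 5′ end of its record, 4.93 kb upstream of its listed start and also within 1 kb of Tcam1. Smarcd1 had none, the nearest lying 50.4 kb away at Racgap1. Smarcb1, the gene of a subunit that contacts the nucleosome and a known tumour suppressor, had none either. The nearest to Smarcb1 was 2.58 kb from its record, at Derl3, with a score of 72.68 that is close to the lowest of the list. It came inside when the margin was widened to 5 kb.

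The genes of the subunits that define the 3 forms of the complex were marked in 9 of 10 cases, against 30.7% of all protein-coding genes. Of the 10, 5 had an interval that reached no other protein-coding gene, against 22.4% of all. Of the 9 with a listed start, 6 had an interval there, against 28.0%. Arid1a, which encodes an ARID subunit of canonical BAF, had the best score of these 10 genes, 545.45, rank 84 of the 6632 intervals (chr4:133751501-133753913). A second interval of score 143.05 (chr4:133754111-133754907) lay 197 bp from the first, and the more downstream of the 2 listed Arid1a starts, which are 2.78 kb apart, lay in the gap. Arid1b, its paralog, had 1 interval of score 254.3 that began 94 bp upstream of its start (chr17:4994980-4996345). Only Arid1a and Chd4 had 2 intervals among the 32 marked members, against 10.7% of all marked protein-coding genes with 2 or more.

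The PBAF genes Pbrm1, Arid2, Phf10 and Brd7 all counted as marked, but not all at a start of their own. Pbrm1, the gene of the multi-bromodomain subunit polybromo, had a score of 219.79 (chr14:31018384-31019299). Its start is 7 bp from that of Gnl3, which is read the other way, and the interval's midpoint lay on the Gnl3 side, 290 bp downstream of the Gnl3 start. Arid2 had a score of 150.91 at an end of its record (chr15:96287559-96288198), with a 640 bp interval that also came within 1 kb of the record of Gm38469. Brd7, a bromodomain gene, had a score of 94.84 across its start (chr8:88361500-88362353). The Phf10 interval (score 223.58, chr17:14942773-14944239) lay 17.8 kb downstream of the Phf10 start, past the 3′ end of the record. It lay at the neighbours Wdr27 and 1600012H06Rik, its midpoint 322 bp downstream of a listed start of 1600012H06Rik.

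Brd9, the bromodomain gene of non-canonical BAF, had a low score of 99.25 (chr13:73937178-73938301), shared with Trip13, whose start is 44 bp away. The DPF genes encode alternative PHD-finger subunits. Dpf3 had an interval of score 80.35 at its start (chr12:83486741-83487787). That of Dpf1 (score 90.52, chr7:29309020-29309859) lay 5.43 kb downstream of the start, inside the record. Dpf2, the broadly expressed form, had no interval within 10.9 kb, and the nearest, at Cdc42ep2, scored 210.96.

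Among the actin-related, BCL7 and SS18 subunits 6 of 7 were marked, against 30.7% of all protein-coding genes. Ss18l1, which encodes the neuronal subunit CREST, had the highest score of all members, 938.92, rank 14 of 6632 (chr2:180041447-180043787). This interval of 2341 bp covered the starts of Ss18l1 and of the proteasome gene Psma7, which lie 19 bp apart on opposite strands. Its midpoint was 134 bp downstream of the Ss18l1 start and 153 bp upstream of the Psma7 start, so it cannot be given to either gene. Ss18, the broadly expressed paralog, had a score of 300.28 (chr18:14681779-14683507), in an interval that no other protein-coding gene shared and whose midpoint lay 1776 bp inside the upper end of its record. Actl6a, which encodes the actin-related subunit of dividing cells, had a score of 119.68 at its start (chr3:32708390-32709567). Actl6b, the form of mature neurons, had none within 20.6 kb. The 3 BCL7 genes were all marked, Bcl7a with 260.96 (chr5:123343860-123345913), Bcl7b with 96.68 (chr5:135168085-135169044) and Bcl7c with 78.1 (chr7:127707992-127709040). The Bcl7a interval also lay 256 bp downstream of the start of the lncRNA gene Gm15860, and that of Bcl7c covered the miRNA gene Mir762.

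The CHD genes were marked in 5 of 9 cases (55.56%, 95% Clopper-Pearson interval 21.2 to 86.3%), and the BAF subunit genes in 22 of 26 (84.62%, 65.13 to 95.64%). These intervals overlap each other, and that of the CHD genes also holds the 30.7% of all protein-coding genes. For the NuRD ATPases, Chd4 had 2 intervals with nearly the same score. That of 330.4 lay at the start (chr6:125095969-125097664) and the slightly higher one of 335.49 past the 3′ end of the record, its midpoint 62 bp downstream of the start of Nop2 (chr6:125131266-125132625). Chd3 had a score of 135.19 at an end of its record (chr11:69367679-69368942), beside the lncRNA gene Gm32483. Chd5, the form known from brain and testis, had none, and the nearest lay 11.9 kb away at Rpl22. Chd1, whose protein reads methylated histone H3 lysine 4, had a score of 106.51 at an end of its record (chr17:15704337-15705331), which is also 543 bp downstream of the start of the lncRNA gene 5830433I10Rik.

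Chd2, the closest paralog of Chd1, had no interval in its record or margins. The nearest lay 15.6 kb away (chr7:73557359-73558756, score 234.51) and reached no protein-coding gene. It lay at Chaserr, a lncRNA gene known in mouse to restrain the expression of Chd2, with its midpoint 338 bp downstream of the Chaserr start. The whole Chaserr window printed above, with 30 CpG dinucleotides, was inside the interval. The Chaserr and Chd2 records overlap by 1949 bp.

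Of the remaining CHD genes, Chd8 and Chd9 had intervals away from their starts and Chd6 and Chd7 had none. The Chd8 interval (score 227.32, chr14:52196669-52197866) lay past the 3′ end of its record, 60.5 kb from its start, with its midpoint 28 bp from the start of Supt16, a histone chaperone gene. The Chd9 interval (score 300.02, chr8:90907822-90909254) lay deep inside the gene, 79.7 kb downstream of the more upstream of 2 listed starts and 23.7 kb upstream of the other. Chd6 had none within 34.4 kb, and Chd7, mutated in CHARGE syndrome in humans, none within 153.9 kb. Of the 9 CHD genes, Chd4 was thus the only one with an interval at a listed start, 5 of the 9 having a listed start.

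The ISWI ATPase genes differed, Smarca5 having a score of 262.32 just inside its start (chr8:80738187-80739286) and Smarca1 none. Smarca1 is X-linked, the only member on that chromosome, and its nearest interval was 3788.2 kb away. The X chromosome carried 29 of the 6632 intervals, and 3.0% of its 966 protein-coding genes were marked. Smarcad1, an ATPase gene linked to chromatin restoration after replication, had a score of 135.29 across its starts (chr6:65042315-65043448). Smarcal1, the gene of a fork-remodelling annealing helicase, had none within 74.2 kb.

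The 3 members of the INO80 family were all marked at their starts, with intervals that reached no second protein-coding gene. Srcap, whose protein deposits the variant H2A.Z, had a score of 313.67 (chr7:127511603-127513106). Ep400, the ATPase gene of the TIP60 complex, had 212.18 (chr5:110769768-110771133), and Ino80 had 192.65 (chr2:119476722-119478240). Each interval held the start of its gene. The Srcap and Ep400 intervals were shared with the lncRNA genes 1700008J07Rik and Gm15559, whose starts are 886 bp and 232 bp from theirs.

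Sharing with neighbours decided some marks and not others. Of the 32 marked members 25 (78.1%) had an interval that reached no other protein-coding gene or its margins, against 73.1% of all marked protein-coding genes. The 7 whose intervals were all shared were Smarcd2, Arid2, Pbrm1, Brd9, Phf10, Ss18l1 and Chd8. Phf10 and Chd8 were marked through an interval past their 3′ end, and without these 30 members were marked. Such genes were not taken out of the share of all protein-coding genes, so the 30 has no like share beside it.

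CpG-rich promoters were common among the members. The ratio of CpG observed over that expected from the C and G content of the 300 base window had a median of 0.89 over the 34 members with a window, against 0.58 over all 17492 protein-coding genes with one. Each gene has 1 window here, at its most upstream listed start, which for Arid1a is not the start with the intervals. The ratio was 0.94 at the 21 members with an interval at the listed start and 0.83 at the 4896 protein-coding genes with one there. At the 13 members without it was 0.78, against 0.37 at the 12596 protein-coding genes without. The share of all protein-coding genes with an interval at the start was 1.7% where the ratio was at most 0.2, and the one member there, Smarcd2, had none. It was 21.8% between 0.4 and 0.6, where Smarca1, the one member, had none either. Between 0.6 and 0.8 an interval was present at 3 of 8 members, against 40.1% of all genes. Between 0.8 and 1.0 it was present at 12 of 17 members against 53.3% of all genes, and above 1.0 at 6 of 7 members against 62.1%. The 95% Clopper-Pearson intervals of the members' shares in these last 3 classes (8.52 to 75.5%, 44.0 to 89.7% and 42.1 to 99.6%) each held the share of all genes of the class. A difference from genes of like CpG content was not detectable with this number of members.

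**Figure D4:**
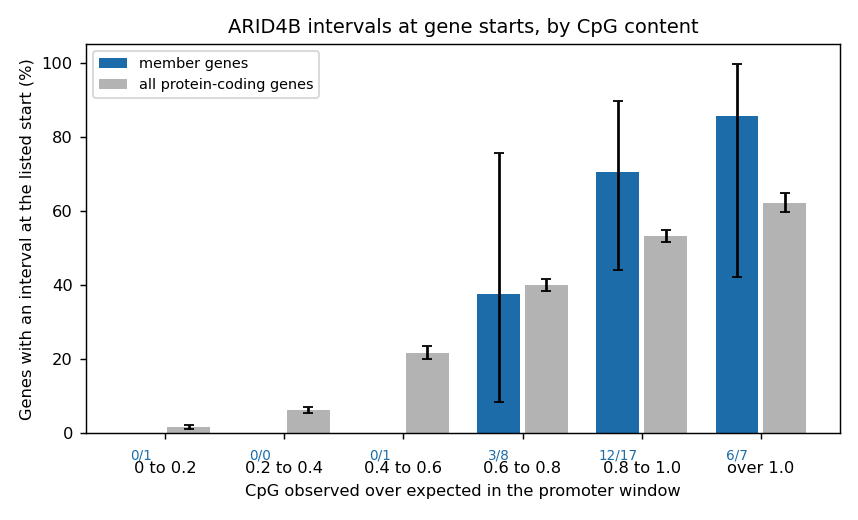
Percent of genes with an ARID4B interval within 1 kb of a listed start, by the CpG observed over expected of the promoter window, for the member genes (blue, counts written below the axis) and all protein-coding genes (grey); error bars are 95% Clopper-Pearson intervals, drawn for classes of over 1 gene. The grey bars climb from 1.7% in the lowest class to 62.1% in the highest, and the blue error bars overlap them.

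Short words bound by promoter factors were counted on both strands of the windows, overlapping matches included. GGGCGG, the word of SP and KLF factors, was present in 20 of the 21 windows of members with an interval at the start and in 12 of the 13 others. The shares among all protein-coding windows were 74.0% with an interval and 35.6% without. CCAAT, the word of NF-Y, was present in 3 of the 21 and 7 of the 13, against 35.4% and 40.7%. Over all 34 member windows, CCGGAAG (ETS factors) was found in 4, GCATGCGC (NRF1) in 4, CACGTG (E-box) in 3, TGACGTCA (CRE) in 0, ATGGCGGC (YY1) in 1 and one of TTTCCCGC, TTTGGCGC and TTTCGCGC (E2F) in 2. The shares over all 17492 protein-coding windows were 11.9% for the ETS, 3.61% for the NRF1, 7.91% for the E-box, 2.33% for the CRE, 3.21% for the YY1 and 2.49% for the E2F words. TATAAA was present in the Smarcd2 window alone of the 34, against 13.3% of all windows. Matches to words of different factors can overlap by at most 4 letters, as TTTCCCGC does with the complement of GGGCGG. Members' windows were also richer in G and C (median 66.8%, against 56.3% for all), and the part of this in the counts of words was not tested.

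Genes of partner subunits of these complexes and of other SNF2-like ATPases were looked up by the same rule. Of these 66 genes 36 had an interval (54.55%, 95% Clopper-Pearson interval 41.81 to 66.86%), against 30.7% of all protein-coding genes, and their best scores had a median of 136.4. All 5 accessory BAF genes had one (Bicra, Bicral, Bcl11a, Bcl11b and Actb), as did 6 of 12 NuRD genes, 6 of 9 ISWI partner genes, 5 of 13 INO80 genes, 9 of 16 SRCAP and TIP60 genes and 5 of 11 genes of other SNF2-like ATPases. The best were at Mbtd1, a subunit gene of TIP60 (score 554.96, shared with Utp18), and at Yy1, the gene of a zinc finger factor found with INO80 (451.25). Hdac1, the deacetylase gene of NuRD and SIN3 (372.07, shared with Marcksl1), Rsf1, a partner of SMARCA5 (354.83, shared with Aamdc), Baz1b, an ISWI partner (322.52), and Bicral of non-canonical BAF (318.56) followed. Hdac2, Mta1, Mbd3 and Ruvbl1 had none.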

How the data were processed

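Reads were aligned and peaks called by the authors, for which the submitters' processing notes name BWA, MACS and mm9. Their versions and parameters are not given in the sources used. What the authors deposited is 1 interval list with a score for each interval. The name of the list speaks of p-values and gives mm10, and the scale of the score is not stated. With the positions read as GRCm38, 71.98% of the intervals on chromosomes with listed starts lay within 1 kb of a protein-coding start, against 4.451 and 4.389% when shifted by 5 kb either way, so they were read as GRCm38. Positions count from 1. Gene records, starts and promoter windows came from RefSeq (GRCm38.p6). A gene's score is that of its best interval.

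The members and lists were chosen with earlier results of these data known. All 42 members and every marked member's score are given. Of the other remodeller genes the 6 with the best scores are named. The other accessory BAF genes, Hdac2, Mta1, Mbd3 and Ruvbl1 were named after their values were seen, as were Chaserr and the other neighbours, and the classes of CpG content were set then too. Shares carry exact Clopper-Pearson intervals (SciPy 1.17.1, Python 3.11.15). The overlap step was run on simulated intervals, each planted inside the margin past the upper end of a gene record, and 200 of 200 such genes were marked. This checks the code at that place only. Alternatives were other margins, record ends or listed starts alone, midpoints, higher scores, unshared intervals and autosomes alone. Depth is unknown.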

Additional observations from a re-analysis of the deposited data

How the results depend on the processing

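With only the top 25% of interval scores, 16 members (38.1%), 15 of 66 other remodeller genes and 8.71% of protein-coding genes were marked. The members' median score was then 257.6, a rise that the cut itself brings. With scores above the list's median 22 members (52.4%), 20 other remodeller genes and 16.7% of protein-coding genes were marked. Counting listed starts only, it was 21 of 34 members (61.8%), 20 of 48 other remodeller genes and 28.0%. For record ends only, 28 of 42 members (66.7%) and 27.1% of protein-coding genes were marked. With no margin it was 30 members (71.4%) against 29.6%, and with 5 kb either side 33 members (78.6%) against 33.5%. For unshared intervals it was 25 members (59.5%) against 22.4%. On autosomes it was 32 of 41 members (78.0%) against 32.3%. Scores stand for evidence in 1 library, and with depth unknown a gene without an interval may fall below the limit of the list. No paired analysis was possible because there was 1 library in each group.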
